A study of Mus musculus with 3 samples.

Results

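Immediate-early genes are switched on within minutes of a stimulus, from factors already present in the cell and without new protein synthesis. Many of them are read by serum response factor, which binds the CArG box, or by CREB, which binds the cyclic AMP response element (CRE). In monocytes and macrophages they are known for their part in the response to growth factors and microbial products, and several of their products end the same response. Of the 21851 mouse protein-coding genes with a coding transcription start site (TSS), 9 were described: the zinc finger transcription factor genes Egr1, Egr2 and Egr3, the immediate early response genes Ier2, Ier3 and Ier5, and the feedback genes Dusp1, Zfp36 and Btg2. They were taken by name and not ranked by a measured value, but earlier results of these data were already known.

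DNase-seq, in which DNase I cuts DNA where it is not covered by nucleosomes, had been run on primary monocytes of adult female B6CASTF1/J mice, a cross of the B6 and CAST strains, aged 2 months. There were 3 libraries, labelled as biological replicates 1, 2 and 4, and all fell into 1 group with no treatment named, so no groups were compared. The labels gave each library its own biosample but 1 shared donor identifier. Nothing said that the libraries came from separate animals, and the spread between them may be technical.

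The deposited peak lists held 54046 peaks in replicate 1, 42657 in replicate 2 and 48980 in replicate 4. Peak height is the authors' own signal value per peak, and its scale is not given in the sources used here, so heights are compared between genes within a library. Replicate 4 had the tallest peaks in general, with a median ratio of its promoter height to that of replicate 1 of 1.27 over 11029 genes (10th to 90th percentile 0.963 to 1.53). Of 10 monocyte marker genes, 7 had one in every library (Csf1r, Cx3cr1, Itgam, Spi1, Cebpa, Lyz2 and Cd14). Fcgr4 and Ly6c2 lacked a promoter peak in some libraries and Ccr2 in all of them. The neutrophil list had 1 of 5, the granule factor gene Cebpe. Camp lacked a promoter peak in some libraries, and Elane, Mpo and Ltf in all of them. The B cell, T cell, erythroid and hepatocyte lists had 0 of 4 each.

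All 9 genes had a promoter peak, defined as a peak within 1 kb of any of their coding TSSs, in each of the 3 libraries. The background was 50.5% of all protein-coding genes. In the shorter, stricter peak lists the promoter peak was listed in all 3 libraries for 8 of the 9, against 46.9% of all genes, and the exception was Egr3, which was listed there in replicates 1 and 2. The tallest promoter peak lay above the library's median promoter height in all 3 libraries for 7 of 9 genes, against 48.9% of the genes with a promoter peak in all 3. Ier5, Zfp36 and Btg2 were in the top 10% in all 3 libraries, against 8.23%. Below, a percentile is the share of genes with a promoter peak in that library whose tallest promoter peak was lower.

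Promoter sequence from RefSeq (GRCm38.p6, the build called mm10) was matched for 6 of the 9 genes: Egr2, Ier3, Ier5, Dusp1, Zfp36 and Btg2. The first set shows promoter stretches that lie inside a region merged from overlapping peaks of the 3 libraries, read 5′ to 3′ on the strand of the gene. The edges of the peaks differ between libraries, and the Zfp36, Dusp1, Btg2 and Ier3 stretches run beyond the peak of at least 1 library. Capitals mark the letters that the description of each promoter turns on. In Egr2 (chr10:67537381-67537565, plus strand) they mark a CArG box and matches of CCGGAA, the core of ETS factor sites, which also runs on as its reverse complement. In Zfp36 (chr7:28379267-28379296, minus strand) they mark a CArG box. In Dusp1 (chr17:26508520-26508819, minus strand) and Btg2 (chr1:134079156-134079360, minus strand) they mark the CRE, TGACGTCA. In Ier5 (chr1:155099637-155099760, minus strand) they mark CCAAT and GGGCGG in either orientation, and in Ier3 (chr17:35821501-35821683, plus strand) they mark GGGCGG run together with an NF-kappaB consensus match.
Egr2 promoter: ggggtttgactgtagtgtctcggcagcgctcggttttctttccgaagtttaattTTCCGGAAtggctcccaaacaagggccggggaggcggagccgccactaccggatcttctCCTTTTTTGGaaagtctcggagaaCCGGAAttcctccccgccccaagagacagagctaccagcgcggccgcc
Zfp36 CArG box site: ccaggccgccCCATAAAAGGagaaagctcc
Dusp1 promoter: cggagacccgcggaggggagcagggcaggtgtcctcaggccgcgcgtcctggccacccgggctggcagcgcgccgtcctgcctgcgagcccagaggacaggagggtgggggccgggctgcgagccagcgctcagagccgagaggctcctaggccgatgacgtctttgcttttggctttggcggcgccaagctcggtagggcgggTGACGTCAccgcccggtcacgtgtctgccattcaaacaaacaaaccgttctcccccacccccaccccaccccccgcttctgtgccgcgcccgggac
Btg2 promoter: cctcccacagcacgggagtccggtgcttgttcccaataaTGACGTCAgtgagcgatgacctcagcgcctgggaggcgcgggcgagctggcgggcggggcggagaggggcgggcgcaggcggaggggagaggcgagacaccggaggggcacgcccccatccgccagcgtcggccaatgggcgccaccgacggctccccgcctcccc
Ier5 promoter: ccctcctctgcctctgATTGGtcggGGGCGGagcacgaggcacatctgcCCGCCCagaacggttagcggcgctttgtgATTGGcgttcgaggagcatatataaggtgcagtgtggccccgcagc
Ier3 promoter: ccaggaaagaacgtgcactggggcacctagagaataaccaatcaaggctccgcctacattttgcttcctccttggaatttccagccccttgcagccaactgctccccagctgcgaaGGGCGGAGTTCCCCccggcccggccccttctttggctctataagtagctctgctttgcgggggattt

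The mice are F1 animals, and the printed letters are those of the reference strain. Sequence of the CAST allele was not used here.

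The Egr genes encode zinc finger factors that bind GC-rich promoter sites. The 3 promoters differed in height, from Egr1, high in its library, to Egr3, among the lower promoters. For Egr1 (ENSMUSG00000038418.7), which is activated by nearly every growth stimulus, the tallest promoter peak reached 7.21 in replicate 1, 6.85 in replicate 2 and 10.1 in replicate 4, a mean of 8.04 ± 1.75 (SD, n = 3). These heights stood at percentiles 82.1, 86.2 and 83.1. The peak belonged to a region at chr18:34860441-34861200, directly upstream of the second coding TSS at 34861207 and inside an untranslated exon of the longer transcript. A shorter region at chr18:34859841-34860080, beside the first TSS, had a height of 6.85 ± 1.43 (SD, n = 3). Egr1 thus had a tall peak at each of its 2 annotated coding starts, and in each library the one upstream of the second start was taller.

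For Egr2 (ENSMUSG00000037868.15), a regulator of myelination that is also induced in macrophages, the values were 4.997, 4.18 and 5.17 in replicates 1, 2 and 4, a mean of 4.78 ± 0.532 (SD, n = 3). Its percentiles were 64.7, 63.1 and 54.1. The ratio of replicate 4 to replicate 1 was 1.04, at percentile 15.8 of all such ratios, lower than for most genes. The tallest region, chr10:67537381-67537600, had its centre 378 bp upstream of the nearest coding TSS, and a second at chr10:67537641-67537860 had a height of 3.91 ± 1.05 (SD, n = 3) and a centre 118 bp upstream. Each of these adjacent regions held 1 CArG box.

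Egr3 (ENSMUSG00000033730.4), needed for muscle spindle development and induced in activated lymphocytes, had 1 promoter region, chr14:70076741-70076980, with a centre 342 bp upstream of its TSS. Its height was 1.66, 1.45 and 2.05 in replicates 1, 2 and 4, a mean of 1.72 ± 0.309 (SD, n = 3), at percentiles 25.6, 23.8 and 25.4. The highest Egr3 value lay under the lowest value of Egr2, and the lowest Egr1 value lay above the highest value of Egr2, so the order of the family was the same in every library.

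Among the Ier genes, the promoters of Ier5 and Ier2 were tall and that of Ier3 was low. Ier5 (ENSMUSG00000056708.5), whose product acts with protein phosphatase PP2A on heat shock factor HSF1, reached 9.99, 8.45 and 14.2 in replicates 1, 2 and 4, a mean of 10.9 ± 2.99 (SD, n = 3). The percentiles were 93.9, 93.9 and 94.9. The peak, chr1:155099521-155099760, was centred 5 bp upstream of the TSS and contains the printed Ier5 stretch with its pairs of CCAAT and GC box letters. A second region over the coding exon, chr1:155098461-155099000, was low at 1.23 ± 0.180 (SD, n = 3).

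Ier2 (ENSMUSG00000053560.4), which encodes a small nuclear protein, reached 7.94, 6.22 and 9.82 in replicates 1, 2 and 4, a mean of 7.99 ± 1.80 (SD, n = 3), at percentiles 85.9, 82.0 and 82.0. This peak, chr8:84662761-84663000, was centred 29 bp upstream of the TSS. Ier2 is a short gene, and a peak of like height stood at its other end, in the 3′ untranslated exon, at chr8:84661621-84661860. That peak was 7.503 in replicate 1, 5.84 in replicate 2 and 10.3 in replicate 4, a mean of 7.87 ± 2.24 (SD, n = 3). The means of the peaks at both ends of Ier2 differed by less than the spread between libraries, and which of them was taller changed between libraries. In replicate 4 its deposited edge lay at 84661840, outside the 1 kb window, and there it was counted as distal.

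Ier3 (ENSMUSG00000003541.6), a stress-inducible regulator of cell survival, had 1 promoter region, chr17:35821501-35821760. Its height was 1.64, 1.45 and 1.84 in replicates 1, 2 and 4, a mean of 1.65 ± 0.195 (SD, n = 3), at percentiles 25.3, 23.9 and 23.1. Ier3 and Egr3 did not differ beyond their spread, and both lay under every value of the other 7 genes. A peak at chr17:35823021-35823220, downstream of the Ier3 gene, was taller than the Ier3 promoter in each library, at 2.59, 1.66 and 3.74 in replicates 1, 2 and 4, a mean of 2.66 ± 1.04 (SD, n = 3). Its centre lies 109 bp upstream of the nearer TSS of Flot1, a membrane scaffold gene that starts 1.55 kb from the Ier3 TSS, and it was counted as a Flot1 promoter peak.

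The feedback genes had heights like the upper Egr and Ier genes. Dusp1 (ENSMUSG00000024190.7), the nuclear phosphatase that switches off MAP kinases, reached 7.07, 6.45 and 10.7 in replicates 1, 2 and 4, a mean of 8.07 ± 2.30 (SD, n = 3), at percentiles 81.1, 83.5 and 85.6. Dusp1 has 3 annotated coding TSSs, and this peak, chr17:26508321-26508920, lay at the start of the short transcripts at 26508519. The far upstream start at 26562128 had a lower region, chr17:26561361-26561580, at 3.32 ± 0.581 (SD, n = 3). The centre of that region lies 0.018 kb from the TSS of the neighbouring gene Ergic1, so it is also an Ergic1 promoter region.

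Zfp36 (ENSMUSG00000044786.6) encodes tristetraprolin, which binds AU-rich elements and promotes the decay of cytokine mRNAs. Its tallest promoter peak was 9.32, 9.12 and 13.6 in replicates 1, 2 and 4, a mean of 10.7 ± 2.55 (SD, n = 3), at percentiles 92.0, 95.7 and 93.9. It belonged to chr7:28379161-28379580 at the downstream TSS, 28379255, and a further region at chr7:28381001-28381500, with a centre 998 bp upstream of the other TSS, had a height of 7.86 ± 2.00 (SD, n = 3). Summed over all its promoter peaks, Zfp36 had 20.7 ± 4.83 (SD, n = 3), and Egr1 had the larger sum of 24.9 ± 7.22 (SD, n = 3). Such sums depend on how the deposited peaks are split. The tallest Egr1 peak of replicate 1 covers a stretch that is split in replicates 2 and 4, and overlapping Egr1 peaks of replicate 4 were both added.

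Btg2 (ENSMUSG00000020423.6), an antiproliferative gene whose product recruits the CCR4-NOT deadenylase, reached 9.26 in replicate 1, 8.41 in replicate 2 and 17.2 in replicate 4, a mean of 11.6 ± 4.86 (SD, n = 3). Its percentiles were 91.7, 93.7 and 98.2. The ratio of replicate 4 to replicate 1 was 1.86, at percentile 99.4 of the 11029 genes, and Btg2 was the 1 gene of the 9 above the 90th percentile of that ratio. All of the Btg2 promoter signal lay in 1 region, chr1:134079021-134079360, centred 71 bp upstream of the TSS. The means of Btg2, Ier5 and Zfp36 differed by less than their spread, as did those of Dusp1, Egr1 and Ier2.

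**Figure D1:**
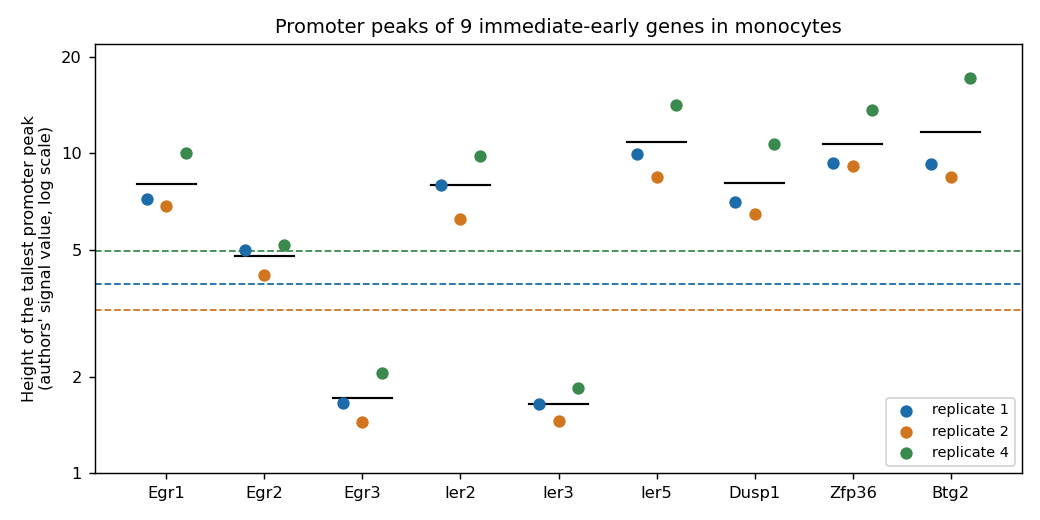
Height of the tallest promoter peak (vertical axis, the authors' signal value, log scale) of the 9 genes, with 1 point per library, a black bar for the mean of the 3 libraries, and a dashed line in the colour of each library for the median over genes with a promoter peak in all 3 (3.90, 3.24 and 4.94 in replicates 1, 2 and 4). The points of Egr3 and Ier3 lie under all 3 dashed lines, and those of the other 7 genes lie above the line of their own library.

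**Figure D2:**
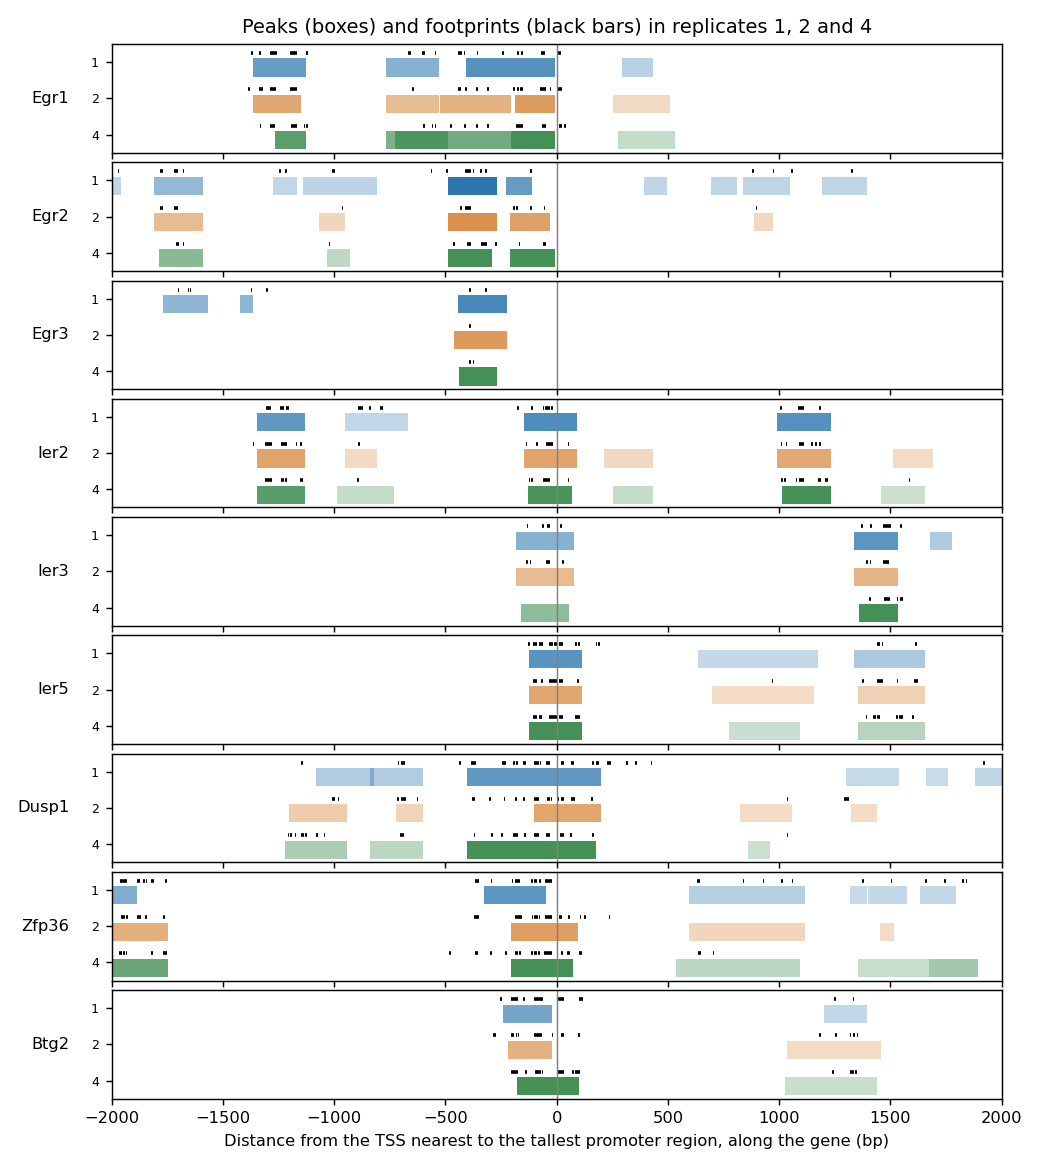
Deposited peaks (boxes, darker where taller, shaded relative to the tallest peak drawn for that gene) and footprints (black bars) of replicates 1, 2 and 4 around the TSS nearest to each gene's tallest promoter region, against distance along the gene in bp. Ier3 shows 1 box per library at the TSS, and Egr3 shows 1 per library upstream of it, with further boxes beyond 1 kb in replicate 1. Ier2 shows boxes at both ends of the gene, and the boxes downstream of Ier3 lie at the Flot1 promoter.

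Several genes had more than 1 accessible stretch at the promoter. At least 2 promoter peaks were listed in every library for 6 of the 9 genes, against 33.6% of the genes with a promoter peak in all 3, and the exceptions were Egr3, Ier3 and Btg2. A separate deposited list gives genomic positions with a false discovery rate of up to 0.05, and its coverage of the promoter windows is a second readout of the same libraries. Ier2 had the widest coverage, with 84.6%, 71.4% and 81.5% of its window listed in replicates 1, 2 and 4, a mean of 79.1% ± 6.90 (SD, n = 3). The median over genes with a promoter peak in all 3 was 35.1% ± 3.55 (SD, n = 3). Zfp36 followed at 73.0% ± 4.40, Ier5 at 62.1% ± 4.90, Egr1 at 60.0% ± 1.88 and Dusp1 at 59.8% ± 1.14 (SD, n = 3 each). Btg2, with the greatest mean height, had a coverage of 35.7% ± 2.05 (SD, n = 3), close to the median gene. Egr2 varied most, with 63.7% in replicate 1, 27.3% in replicate 2 and 28.7% in replicate 4. Ier3 had 15.9% ± 4.92 and Egr3 11.6% ± 2.99 (SD, n = 3 each).

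CArG boxes, the letters bound by serum response factor, were searched on both strands in the promoter regions seen in all 3 libraries. They were present in 6 of the 19 such regions of the 9 genes (31.6%), against 138 of 13556 promoter regions of all genes (1.02%). Regions differ in width, with a median of 317 bp in the 9 genes and 280 bp in all, and in windows of 200 bp centred on each region the counts were 6 of 19 against 0.649%. By gene, 5 of 9 had a CArG box: Egr1, Egr2, Egr3, Dusp1 and Zfp36, with that of Dusp1 only in the region at the Ergic1 TSS. The share over all genes with such a region was 1.40%. Among 45 other immediate-early genes with such a region 5 had a CArG box, the genes Srf, Fos, Fosb, Dusp5 and Tob2. Here and below, the list of other immediate-early genes also holds partner genes, such as Srf, Elk1, Elk3, Elk4, Nab1 and Nab2. Egr and Fos genes are textbook targets of serum response factor, and the count says where those letters lie in accessible DNA, not whether the factor was bound.

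Egr1 held 5 CArG boxes in its tall region, at 402, 364, 348, 100 and 78 bp upstream of the second coding TSS. In Egr2 the box printed above, CCTTTTTTGG, lies 370 bp upstream of the nearest TSS. The box of the adjacent region lies 67 bp upstream, inside the peak of replicates 2 and 4 but outside that of replicate 1. In Zfp36 the printed box lies 27 bp upstream of the downstream TSS, in the tallest region, inside the peak of replicates 2 and 4 but outside that of replicate 1. In Egr3 the box lies 355 bp upstream. The box counted for Dusp1 was not in its tall region but in the region shared with the Ergic1 promoter, 722 bp downstream of the far upstream start.

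The CRE was found in 3 of the 19 regions (15.8%), against 3.62% of all promoter regions, and in windows of 200 bp in 2 of 19 (10.5%) against 2.94%. The 3 genes were Ier2, Dusp1 and Btg2, against 5.07% of all genes, and in each the match lay in the gene's tallest promoter region. The matches lie 42 bp upstream of the Ier2 TSS, 93 bp upstream of the Dusp1 TSS and 198 bp upstream of the Btg2 TSS. That of Btg2 was inside the peak of replicates 1 and 2 but outside that of replicate 4. The CRE of Dusp1 lay at the short start, which held no CArG box. Among 45 other immediate-early genes 7 had a CRE: Jund, Nr4a2, Maff, Ppp1r15a, Plk2, Btg3 and Trib1.

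**Figure D3:**
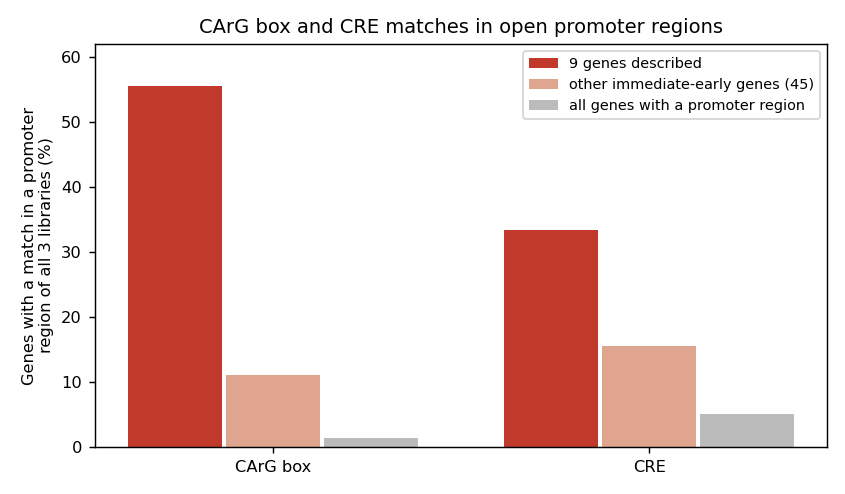
Share of genes (vertical axis, percent) with a CArG box or a CRE in a promoter region seen in all 3 libraries, for the 9 genes, 45 other immediate-early genes and all 10996 genes with such a region. The CArG box shares are 55.6%, 11.1% and 1.40%, and the CRE shares are 33.3%, 15.6% and 5.07%. The Dusp1 CArG box is counted from the region it shares with the Ergic1 promoter.

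Other letters were less unlike the background. GGGCGG, the GC box, was in 14 of the 19 regions (73.7%), against 67.1% of all promoter regions. CCAAT was in 9 of 19 (47.4%), against 35.3%, and CCGGAA in 5 of 19 (26.3%), against 29.4%. In windows of 200 bp the shares were 52.6% against 56.8% for GGGCGG, 31.6% against 28.2% for CCAAT and 26.3% against 22.4% for CCGGAA. The NF-kappaB consensus was in 3 of 19 (15.8%), against 6.89%, and the Ier3 match is 1 of these. GCGTGGGCG, the site bound by Egr proteins themselves, was in 0 of 19 regions, against 1.45%. TGACG, the shorter form of the CRE, was in 10 of 19 (52.6%), against 35%. In windows of 200 bp the NF-kappaB share was 10.5% against 4.34%, and that of TGACG was 42.1% against 26.8%. The PU.1, AP-1 (TGANTCA) and C/EBP (TTGCNNAA) letters were each in 1 of 19 (5.26%), against 4.43%, 5.08% and 8.31%. In windows of 200 bp they were in 0, 1 and 0 of 19, against 2.99%, 3.33% and 5.63%. TATAAA, the RUNX letters TGTGGT and the core CTCF consensus were in 0 of 19, against 3.64%, 12.2% and 3.22%.

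Footprints are short stretches shielded from DNase I. The deposited lists give their positions, some of them outside peaks, and those overlapping a promoter peak were counted. The promoter peaks of the 9 genes held 87 footprints in replicate 1, 81 in replicate 2 and 82 in replicate 4, a mean of 83.3 ± 3.21 (SD, n = 3). Per 100 bp of peak this was 1.23, 1.25 and 1.27, and the values over all promoter peaks were 1.24, 1.25 and 1.27. Taken over all 9 genes, the density of footprints was close to that of promoters at large in every library.

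All 3 promoter CREs, those of Ier2, Dusp1 and Btg2, lay under a footprint in all 3 libraries, counting a match when at least 50% of its bases were covered. Over all promoter regions this was so for 380 of 516 CRE matches (73.6%). Of the 10 CArG boxes in the promoters of the 9 genes, 1 lay under a footprint in all 3 libraries, the box of Zfp36, and 7 lay under none in any library. The footprint over the Zfp36 box also covered the adjoining GC box in all 3 libraries, so it cannot be assigned to the CArG box alone. Over all promoter regions, 11 of 147 CArG matches (7.48%) were under footprints in all 3 libraries and 74.1% in none. In these genes, as in all promoter regions, most CRE matches and few CArG boxes were footprinted. None of the 5 Egr1 boxes lay under a footprint in any library.

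The genes differed in how their footprints recurred. In Dusp1 the tall region held 9 stretches covered by footprints of all 3 libraries, 82 bp in all, and the Ier5 region held 6 such stretches, also 82 bp in all. Zfp36 had 6 stretches of 80 bp in all in its tallest region, and Btg2 had 5 stretches of 67 bp in all. The Ier3 peak held 5 footprints in replicate 1, 5 in replicate 2 and 0 in replicate 4, so no stretch was shared.

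Distal peaks were those within 50 kb of the most upstream coding TSS and outside the promoter window of every protein-coding gene. The 9 genes had a mean of 10.6 distal peaks in replicate 1, 9.11 in replicate 2 and 10.3 in replicate 4, a mean of 10 ± 0.778 (SD, n = 3). Over genes with a promoter peak in all 3 libraries the mean was 3.18 ± 0.424, over all protein-coding genes 2.40 ± 0.326, and over 49 other immediate-early genes 6.54 ± 0.781 (SD, n = 3 each). At least 5 distal peaks were present in every library for 8 of the 9 genes, against 12.4% of all protein-coding genes.

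Ier5 and Btg2 had the most distal peaks and Egr2 the fewest. Ier5 had 14, 13 and 16 in replicates 1, 2 and 4 (14.3 ± 1.53; SD, n = 3), and Btg2 had 14, 13 and 14 (13.7 ± 0.577; SD, n = 3). Ier2 had 12, 11 and 13 (12 ± 1; SD, n = 3). Ier3, whose own promoter is low, had 10, 8 and 11 (9.67 ± 1.53; SD, n = 3). Zfp36 had 10, 9 and 10 (9.67 ± 0.577; SD, n = 3). In the neighbourhoods of Ier3 and Zfp36 lie the TSSs of 5 other protein-coding genes each, so their distal peaks are shared with more neighbours than those of Ier5, which has 1, or Btg2, which has 2.

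Within the Egr family the counts were lower and less alike. Egr1 had 7, 7 and 6 distal peaks in replicates 1, 2 and 4 (6.67 ± 0.577; SD, n = 3). Egr2 had 5, 2 and 3 (3.33 ± 1.53; SD, n = 3). Egr3 had 13, 9 and 6 (9.33 ± 3.51; SD, n = 3), the widest spread of the 9 genes. For Dusp1 the origin matters: from the far upstream start it had 10, 10 and 14 (11.3 ± 2.31; SD, n = 3), and from the start of the short transcripts, where its tall peak lies, 20, 20 and 23 (21 ± 1.73; SD, n = 3). The second origin was added after the data had been seen.

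Merged across libraries, the distal peaks of the 9 genes formed 113 regions, of which 66 had a peak in all 3 libraries, 17 in 2 and 30 in 1. Over all distal regions of the genome 48.1% had a peak in all 3. By position, 47 of the 113 were intergenic, 39 lay in introns of protein-coding genes and 10 in introns of non-coding genes. One of the 9 genes was the gene with the nearest TSS for 71 regions, and for the others the nearest TSS belonged to a neighbour. Position and nearest TSS were not counted over all distal regions of the genome, so these counts only describe the 9 genes. Recurrent regions were fewest at Egr2, with 1, and most numerous at Btg2, with 11.

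**Figure D4:**
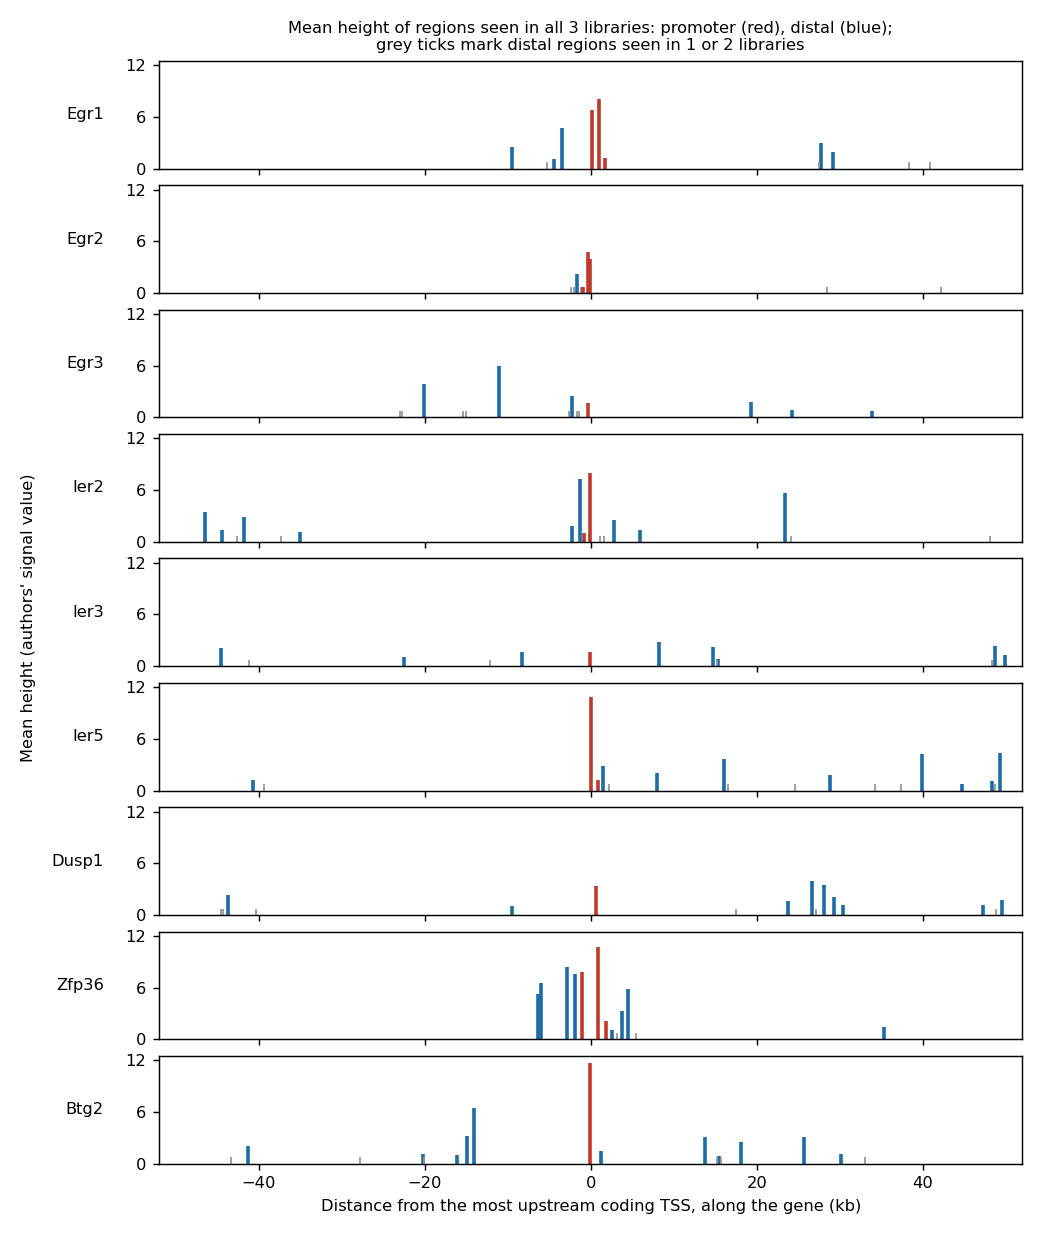
Mean height over the 3 libraries (vertical axis, the authors' signal value) of promoter regions (red) and distal regions (blue) seen in all 3 libraries, against distance from the most upstream coding TSS in kb, with grey ticks for distal regions seen in 1 or 2 libraries. Zfp36 shows a cluster of tall distal regions near its start, Egr3 shows 3 distal regions above its promoter in every library, and the tall promoter region of Dusp1 lies at the start of its short transcripts, beyond the right edge.

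Among distal regions seen in all 3 libraries, the one with the greatest mean height stood in the cluster upstream of Zfp36. The region at chr7:28382961-28383300, 2.88 kb upstream of the upstream TSS, reached 8.42, 6.74 and 10.2 in replicates 1, 2 and 4, a mean of 8.44 ± 1.72 (SD, n = 3). The next, at chr7:28381921-28382320 and 1.87 kb upstream, had 7.44, 6.27 and 8.90 (7.54 ± 1.32; SD, n = 3). A region at chr7:28386081-28386400, in an untranslated exon of Med29, had 6.57 ± 1.23 (SD, n = 3). Among all distal peaks of a library the lowest percentile of these 3 Zfp36 regions was 99.0. Their spreads over the libraries overlapped, but within each library their heights fell in the order in which they are given here. Among the other genes, Egr3, Ier2 and Btg2 each had 1 recurrent distal region with a mean height above 6, and the rest had 0. That of Ier2, at 7.30 ± 1.25 (SD, n = 3), was taller than the region in the Med29 exon in every library. In replicate 4 the Ier2 3′ peak, counted as distal in that library only, was taller than all of these regions, at 10.3.

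Of the 13 distal regions of Egr3, 3 were taller than its promoter in every library. The region at chr14:70066001-70066340, 11.0 kb upstream, reached 5.47, 4.79 and 7.76 in replicates 1, 2 and 4, a mean of 6.01 ± 1.56 (SD, n = 3), above the promoter peak in every library. A region at chr14:70056981-70057360, 20.03 kb upstream in an intron of Pebp4, had 3.89 ± 0.596, and one at chr14:70074821-70075080, 2.25 kb upstream, had 2.45 ± 0.553 (SD, n = 3 each). The 11.0 kb and 2.25 kb regions each held a CArG box, as the promoter did. Egr1 had its tallest distal region 3.43 kb upstream at chr18:34856261-34856520, with 4.78, 4.08 and 5.38 in replicates 1, 2 and 4 (4.75 ± 0.653; SD, n = 3), and it held a match of GAGGAAGT, the site of the myeloid factor PU.1. Egr2 had a single recurrent distal region, 1.70 kb upstream at chr10:67536061-67536280 and in an Egr2 intron, with 1.89, 1.96 and 2.72 (2.19 ± 0.463; SD, n = 3).

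A distal peak taller than the promoter in every library was found for 2 of the 9 genes, Egr3 and Ier3, against 16.7% of the genes with a promoter peak in all 3. For Ier3 the tallest by mean height was the region 8.24 kb downstream at chr17:35829821-35830020, in a coding exon of Flot1. It had 2.39, 2.62 and 3.39 in replicates 1, 2 and 4 (2.80 ± 0.523; SD, n = 3). The nearest TSS to it was that of Flot1. The tallest region nearest to Ier3 itself, 44.5 kb upstream at chr17:35777021-35777300, had 2.15, 1.70 and 2.48 (2.11 ± 0.388; SD, n = 3). It too was taller than the Ier3 promoter in every library. So were chr17:35836261-35836480, nearest to the TSS of Tubb5, and chr17:35870181-35870480, nearest to that of Ppp1r18.

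Ier2 had a tall region directly outside its promoter window, at chr8:84663981-84664200 and 1.24 kb upstream, with 6.83, 6.36 and 8.71 in replicates 1, 2 and 4 (7.30 ± 1.25; SD, n = 3). Its height differed from that of the Ier2 promoter by less than the spread between libraries. Another, 23.4 kb downstream at chr8:84639301-84639700 in a coding exon of the calcium channel gene Cacna1a, had 5.11, 4.79 and 7.10 (5.67 ± 1.25; SD, n = 3). It held 2 matches of the core CTCF consensus, and both lay under footprints in all 3 libraries.

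Ier5 had its distal regions on the downstream side. The tallest, 49.3 kb downstream at chr1:155050241-155050520 in an intron of the non-coding gene Gm29282, had 4.30, 3.95 and 4.98 in replicates 1, 2 and 4 (4.41 ± 0.519; SD, n = 3). One at 39.96 kb, chr1:155059561-155059800, had 3.62, 3.31 and 5.85 (4.26 ± 1.39; SD, n = 3). Of the 16 distal regions of Ier5, 14 lay downstream and 2 upstream. The most distant one held both TGANTCA, the AP-1 site, and the PU.1 letters.

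Btg2 had its tallest distal region 14.0 kb upstream at chr1:134092981-134093300, in intergenic DNA, with 6.28, 5.59 and 7.48 in replicates 1, 2 and 4 (6.45 ± 0.956; SD, n = 3). Its lowest percentile among the distal peaks of a library was 98.8, and it held 7 stretches footprinted in all 3 libraries. In Dusp1 the tallest counted from the far upstream start, chr17:26535241-26535720, lay in an intron of the long transcript, with 3.93, 3.25 and 4.51 (3.89 ± 0.631; SD, n = 3). Counted from the short start, chr17:26502881-26503260 was taller in every library, with 4.21, 3.42 and 4.72 (4.12 ± 0.652; SD, n = 3). A lower Dusp1 region in the intron of the long transcript, chr17:26538221-26538402, had 1.63 ± 0.598 (SD, n = 3) and held a CRE under a footprint in all 3 libraries. Dusp1 thus had a footprinted CRE both at its short start and in this intron.

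Distal stretches are printed for the 3 feedback genes, since they hold the same letters as the promoters or the myeloid ones. They are read 5′ to 3′ on the minus strand, the strand of these genes. Capitals mark the CArG box in Btg2 (chr1:134092993-134093292), the CRE and the PU.1 letters in Dusp1 (chr17:26538221-26538402), and the NF-kappaB consensus and the PU.1 letters, as their reverse complement, in Zfp36 (chr7:28381921-28382220).
Btg2 distal region: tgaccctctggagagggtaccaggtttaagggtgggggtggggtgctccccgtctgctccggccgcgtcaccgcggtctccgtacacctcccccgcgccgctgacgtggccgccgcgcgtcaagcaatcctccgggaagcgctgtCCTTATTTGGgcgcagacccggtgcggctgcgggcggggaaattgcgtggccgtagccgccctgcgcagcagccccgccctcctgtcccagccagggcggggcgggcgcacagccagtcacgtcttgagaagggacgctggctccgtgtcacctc
Dusp1 distal region: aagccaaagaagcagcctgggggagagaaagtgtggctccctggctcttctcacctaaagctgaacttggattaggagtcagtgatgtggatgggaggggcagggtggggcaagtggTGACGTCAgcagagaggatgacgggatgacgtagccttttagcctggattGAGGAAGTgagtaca
Zfp36 distal region: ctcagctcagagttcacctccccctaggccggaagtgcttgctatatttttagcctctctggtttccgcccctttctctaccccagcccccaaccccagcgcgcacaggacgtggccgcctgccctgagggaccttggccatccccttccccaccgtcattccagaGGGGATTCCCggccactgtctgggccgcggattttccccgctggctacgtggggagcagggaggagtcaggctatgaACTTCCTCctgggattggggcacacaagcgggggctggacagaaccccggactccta

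Over the 66 distal regions seen in all 3 libraries, the NF-kappaB consensus was present in 11 (16.7%), against 5.58% of 20762 distal regions of the genome. The AP-1 letters were in 14 (21.2%), against 13.4%, and the PU.1 letters in 12 (18.2%), against 10.6%. The regions of the 9 genes were wider, with a median of 280 bp against 228 bp. In windows of 200 bp the shares were 10.6% against 4.06% for NF-kappaB, 16.7% against 10.4% for AP-1, and 10.6% against 8.49% for PU.1. The CArG box was in 3 of 66 (4.55%), against 1.38%, in the regions of Egr3 and Btg2 named above. The RUNX letters were in 18 (27.3%), against 25.2%. The C/EBP letters were in 10 (15.2%), against 14.9%, and the core CTCF consensus in 3 (4.55%), against 7.99%. In windows of 200 bp all 3 of these shares lay below the background: 16.7% against 20.4% for RUNX, 7.58% against 11.6% for C/EBP and 4.55% against 7.64% for CTCF. Higher shares were not limited to the NF-kappaB, AP-1, PU.1 and CArG letters. TGACG was in 22 (33.3%), against 16.4%, GGGCGG in 19 (28.8%), against 14.6%, and CCGGAA in 10 (15.2%), against 7.45%. For these letters the shares in windows of 200 bp were 28.8% against 12.8%, 19.7% against 12.05%, and 13.6% against 5.80%. Under footprints in all 3 libraries lay 0 of 14 NF-kappaB matches, 0 of 17 AP-1 matches and 1 of 12 PU.1 matches. The same shares over all distal regions were not counted, so whether these counts are low for distal DNA was not tested.

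Height at the promoter and the number of distal peaks did not go together in every gene. Ier5 and Btg2 were high in both. Ier3 and Egr3 combined a low promoter with 9.67 and 9.33 distal peaks, at percentiles 97.4 and 97.0 of the distal counts of all genes. Egr2 had a middling promoter and the lowest distal count, at percentile 72.7.

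**Figure D5:**
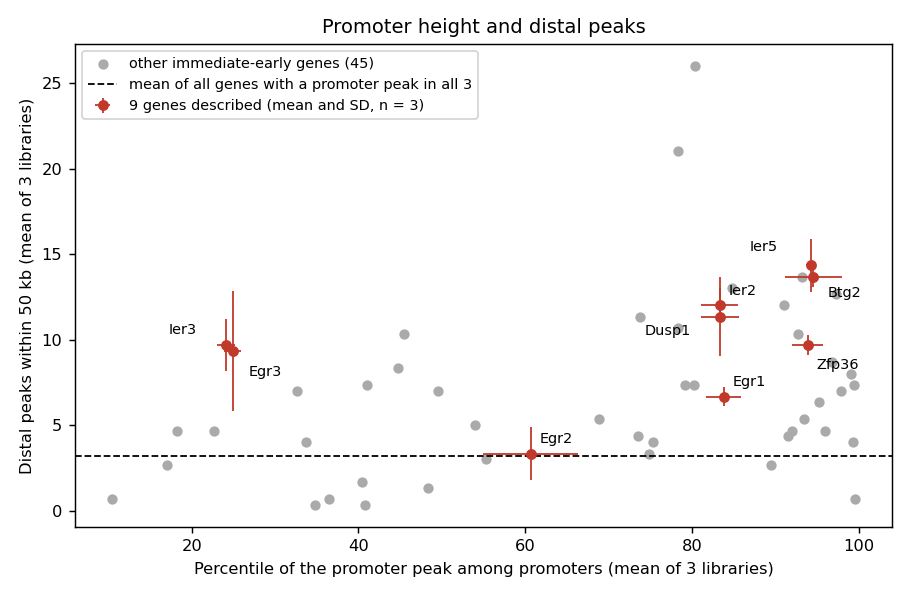
Mean percentile of the promoter peak among promoters (horizontal axis) against the mean number of distal peaks within 50 kb (vertical axis), with SD over 3 libraries for the 9 genes (red), 45 other immediate-early genes (grey) and the mean distal count of genes with a promoter peak in all 3 libraries, 3.18 (dashed line). Ier3 and Egr3 stand apart at the left with 9.67 and 9.33 distal peaks, and Egr2 lies near the dashed line at 3.33.

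Of 49 other immediate-early and partner genes in the annotation, 45 had a promoter peak in every library (91.8%). The highest mean percentiles were those of Btg1, at 99.6, Tnfaip3, at 99.4, Dusp5, at 99.3, and Jund, at 99.1. Btg1, the relative of Btg2, had a promoter height of 16.3, 14.1 and 19.6 in replicates 1, 2 and 4 but 0, 1 and 1 distal peaks. Btg2, with 14, 13 and 14, thus differed from it in its surroundings more than at its promoter. Egr4, the Egr family member outside the 9 genes, and Npas4, both known from neurons, had no promoter peak in any library, and neither did Ccn1, a matricellular gene of fibroblasts. Elk3 had a promoter peak in 2 libraries.

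By Euclidean distance over the log2 promoter heights and log2 distal counts of the 3 libraries, the genes with the profile most like the median profile of the 9 were Zfp335, at 0.220, Cotl1, at 0.242, Arpc5 and Rgl1, both at 0.283, and Ensa, at 0.292. Arpc5 and Rgl1 have the same values in every library. Of the 9 genes, Dusp1 lay closest to that median profile, at 0.363, followed by Ier2, at 0.447, and Ier3 and Egr3 lay farthest, at 3.90 and 3.89. The median over all genes with a promoter peak in all 3 was 4.10.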

How the data were processed

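DNase-seq of 3 monocyte libraries was described. Per the file headers the deposited files are on mm10. The authors' signal value of each peak was used as deposited. The footprint lists carry a p-value column that the authors deposited as a constant 0.01, and a further deposited list gives positions with a false discovery rate (an adjusted p-value) of up to 0.05. Aligner, peak caller, footprint method and read depth were not given in the sources used here.

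The longer of the 2 peak lists per library was used, and the shorter as an alternative. Some deposited peaks overlap one another. Promoter windows reached 1 kb either side of each protein-coding TSS of GENCODE mouse release 21, and an overlap of at least 1 bp counted. Overlapping peaks of different libraries were merged into regions. Motifs were matched as exact letters on both strands of GRCm38.p6. No test was run, as there was 1 group. Scripts used Python 3.11.15, numpy 2.4.6 and pandas 2.3.3, and the overlap code was tested on simulated data.

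The 9 genes, the other immediate-early genes and the marker lists were chosen with earlier results of these data known. All 9 genes were named, as were the 4 highest of the other immediate-early genes, those without a promoter peak, the 5 nearest genes by profile, and each gene's tallest recurrent distal region. Alternatives were the shorter lists, the taller 50% of peaks, other windows and distances, another overlap, and leaving out each library.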

Additional observations from a re-analysis of the deposited data

How the results depend on the processing

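The mean of 10 distal peaks per gene was 6.44 with the shorter peak lists, 6.81 with the taller 50% of peaks, 5.78 within 25 kb, 16.1 within 100 kb and 11.4 from any coding TSS. It was 11.1 with Dusp1 counted from the start of its short transcripts, an alternative chosen after the data had been seen. The 66 distal regions seen in all 3 libraries became 39 within 25 kb, 113 within 100 kb, 46 with the shorter lists and 50 with the taller 50% of peaks. The mean of 83.3 footprints in the promoter peaks was 79.7 when a footprint had to lie wholly inside the peak and 79.3 with the shorter lists. With 1 library left out, distal peaks per gene ranged from 9.72 to 10.4, shared distal regions from 67 to 75 and footprints from 81.5 to 84.5, and all 9 genes had a promoter peak in each such pair of libraries. The Ier3 promoter height of 1.65 was 2.66 in a window of 2 kb, which takes in the Flot1 promoter peak. Heights summed over all promoter peaks were above the tallest peak for Egr1, Egr2, Ier2, Dusp1 and Zfp36 by more than 1 SD. Libraries could not be paired across conditions because all of them belong to 1 group. Without read counts per library, the depth behind each height is unknown, and a gene without a peak is not shown to be closed.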
